A study of Homo sapiens with 6 samples.

Results

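The genes described here are 6 matrix metalloproteinases (MMP1, MMP9, MMP10, MMP13, MMP14 and MMP28) and 3 tissue inhibitors of metalloproteinases (TIMP1, TIMP2 and TIMP3). They were found by symbol among the 20035 genes of the expression table, where each of the 9 had a single entry. Poly(A)-selected RNA was sequenced from HaCaT, a spontaneously immortalized line of human keratinocytes that the labels give as wild type. Libraries came from 3 samples treated with palmatine, a plant alkaloid of the protoberberine class, and from 3 control samples labelled with no treatment. The study describes an IL-17 model of psoriasis, but the labels do not say which samples received IL-17, and they give neither a dose nor a time for palmatine. Only this 1 line was used, and whether each library came from its own culture is not labelled; the p-values therefore reflect the spread among these libraries, which may be technical. In bulk RNA, fewer cells expressing a gene and less of its RNA per cell cannot be told apart. Library totals were 15155605 to 17218171 counts in palmatine and 12908646 to 15699753 counts in control samples, and the first principal component, with 51.0% of the variance, did not separate the groups.

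Matrix metalloproteinases are zinc-dependent endopeptidases that cut collagens, laminins, fibronectin and cell-surface proteins. They are made as inactive precursors, and TIMPs block the active enzymes by binding to the catalytic site. In skin, keratinocytes at a wound edge use collagenases to move over dermal collagen, and these proteases also release growth factors and cytokines held in the matrix. RNA levels say nothing of whether the enzymes were activated, secreted or inhibited.

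All 9 genes were transcribed, and none differed between palmatine and control at the threshold used, a Benjamini-Hochberg adjusted p of 0.05 in the edgeR quasi-likelihood test. In that test 0.0405% of the 12356 tested genes passed in either direction. Levels rather than differences set the members apart, from about 67 FPKM for MMP13 to under 1 FPKM for MMP9. The log2 fold changes of palmatine over control ran from -0.12 for TIMP1 to 0.29 for MMP13. At an unadjusted p under 0.05, 3 members were higher in palmatine (MMP13, MMP10 and TIMP3), against 5.13% of all tested genes. At the same threshold 0 members were lower, against 4.69% of all tested genes.

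MMP1, MMP10 and MMP13 lie in a cluster of metalloproteinase genes on the minus strand of chromosome 11. The table places MMP10 (ENSG00000166670) at positions 102770502 to 102780628, MMP1 (ENSG00000196611) at 102789401 to 102798160 and MMP13 (ENSG00000137745) at 102942995 to 102955732. MMP9 (ENSG00000100985) is on chromosome 20 at 46008908 to 46016561, MMP14 (ENSG00000157227) on chromosome 14 at 22836560 to 22849041 and MMP28 (ENSG00000271447) on chromosome 17 at 35756249 to 35795707. TIMP1 (ENSG00000102265) is on chromosome X at 47582408 to 47586789, TIMP2 (ENSG00000035862) on chromosome 17 at 78852977 to 78925387 and TIMP3 (ENSG00000100234) on chromosome 22 at 32801705 to 32863041. The table names no build, but all 9 loci overlapped the same gene on the same strand in GENCODE release 29, which uses GRCh38. TIMP1 lies within SYN1, TIMP3 within SYN3 and MMP28 within the span of TAF15, each on the opposite strand, and MMP1 and MMP10 lie within the pseudogene WTAPP1, also on the opposite strand. SYN3 held 0 to 2 counts per library and SYN1 27 to 54, whereas TAF15 held 4035 to 6273. Since the sources used here do not state whether counting used strand, reads of such neighbours may not have been kept apart.

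Upstream sequence from RefSeq (GRCh38.p14) was at hand for MMP10, MMP14, TIMP1 and TIMP3, and is shown for 3 of them because MMP10 and TIMP3 leaned higher in palmatine while MMP14 differed little. Capitals mark TGANTCA, a loose form of the site of the AP-1 factors that act on many metalloproteinase genes, with any base at its centre. Also marked are the variant TGAGTAA, the GC box GGGCGG bound by SP1, and the TATA box TATAAA, each on either strand. These motifs were chosen after the sequences had been seen. Each window holds the 250 bases before the RefSeq start, 5′ to 3′ on the gene's strand; for MMP14 the table puts the start inside the window.
MMP10, chr11:102780629-102780878, minus strand: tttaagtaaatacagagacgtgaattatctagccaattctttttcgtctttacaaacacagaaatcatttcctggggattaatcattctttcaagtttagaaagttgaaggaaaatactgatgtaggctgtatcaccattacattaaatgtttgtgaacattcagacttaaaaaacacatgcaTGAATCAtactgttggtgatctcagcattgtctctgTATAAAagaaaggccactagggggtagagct
MMP14, chr14:22836335-22836584, plus strand: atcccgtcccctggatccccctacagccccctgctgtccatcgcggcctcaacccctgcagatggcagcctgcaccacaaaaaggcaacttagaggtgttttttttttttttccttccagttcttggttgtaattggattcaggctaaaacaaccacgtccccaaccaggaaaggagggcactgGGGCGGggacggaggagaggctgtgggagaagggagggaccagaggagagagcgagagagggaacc
TIMP3, chr22:32801455-32801704, plus strand: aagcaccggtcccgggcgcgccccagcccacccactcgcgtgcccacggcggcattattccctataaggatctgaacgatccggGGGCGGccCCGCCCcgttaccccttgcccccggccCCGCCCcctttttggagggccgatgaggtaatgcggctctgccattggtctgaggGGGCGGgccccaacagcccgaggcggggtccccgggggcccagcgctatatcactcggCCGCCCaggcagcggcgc

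The MMP10 window holds a TATA box that begins 31 bases before the start and a TGANTCA match, TGAATCA, that begins 67 bases before it. The MMP14 window holds 1 GC box, and the TIMP3 window holds 5 GC boxes and none of the other motifs. In TIMP1, TGAGTAA begins 101 bases before the start, beside 2 GC boxes. Among 35116 RefSeq windows of the same length, 6.57% held TGANTCA, 2.21% TGAGTAA, 42.6% GGGCGG and 10.7% TATAAA. A match describes these letters only.

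Levels between genes were compared in FPKM, the authors' counts scaled to gene length and library total. MMP13 had the highest level of the 9, at 75.5 ± 3.85 FPKM in palmatine and 59.2 ± 2.55 FPKM in control cells (SD, n = 3 each). MMP14 followed at 59.2 ± 2.02 FPKM in palmatine and 53.6 ± 4.19 FPKM in control cells (SD, n = 3 each). Over the 6 libraries, MMP13 ranged from 57.4 to 79.1 FPKM and MMP14 from 49.3 to 61.2 FPKM, so that these neighbours in the order overlapped. MMP28 was next at 30.4 to 33.0 FPKM and then TIMP1 at 21.7 to 24.4 FPKM, each clear of its neighbours. MMP1 at 14.3 to 19.7 FPKM and MMP10 at 12.7 to 18.3 FPKM overlapped each other. Below them lay TIMP3 at 6.57 to 9.07 FPKM, TIMP2 at 0.866 to 1.54 FPKM and MMP9 at 0.232 to 0.565 FPKM, with no overlap between these 3.

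Together the 6 MMP members made up most of the metalloproteinase transcripts on the FPKM scale. Their share of the summed FPKM of all MMP genes in the table was 80.8% ± 0.657 in palmatine and 79.5% ± 0.503 in control libraries (SD, n = 3 each). MMP13 held 30.4% ± 0.722 of the sum in palmatine and 27.3% ± 1.08 in control libraries, and MMP14 held 23.9% ± 1.47 in palmatine and 24.7% ± 1.30 in control libraries (SD, n = 3 each). The largest contributor outside the members was MMP2, the gelatinase that MMP14 activates at the cell surface, with 10.7% ± 0.476 in palmatine and 11.02% ± 0.202 in control libraries (SD, n = 3 each). MMP12, the macrophage elastase, was at 9.28 to 11.99 FPKM, while MMP26, MMP27 and MMP23B had 0 counts in every library.

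**Figure D1:**
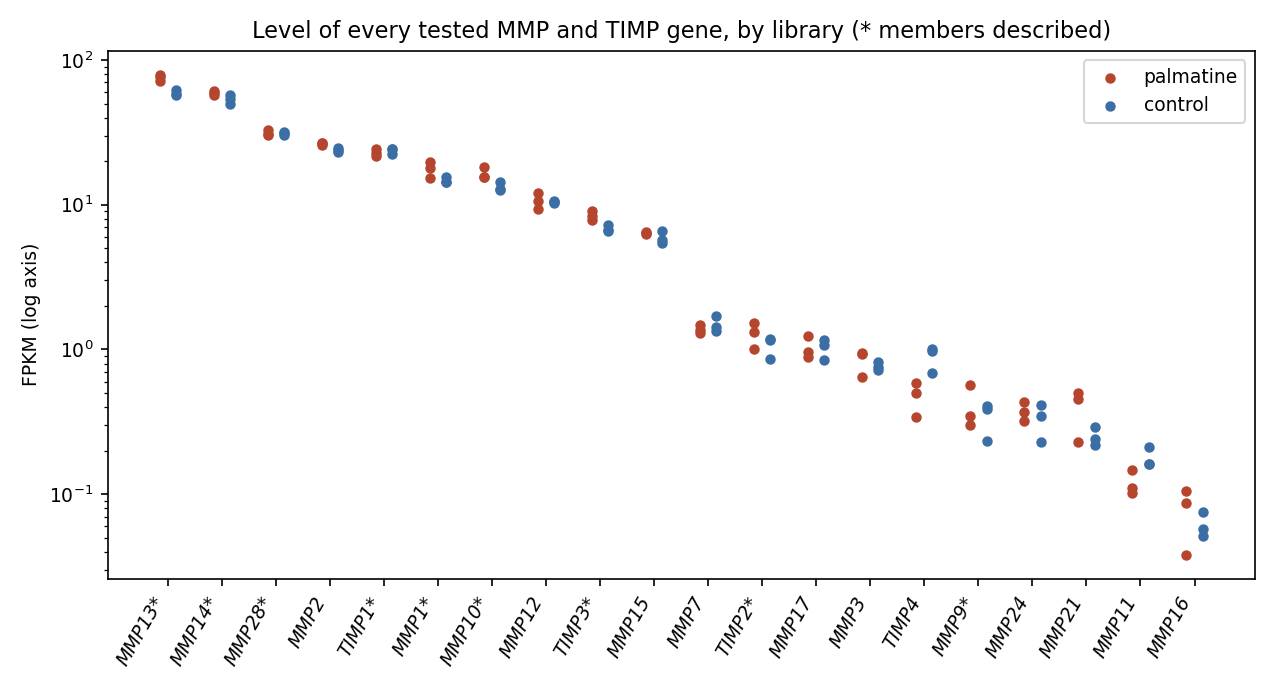
Level of each tested MMP and TIMP gene in FPKM on a log axis, with 1 point per library (palmatine left, control right, 3 libraries each); asterisks mark the 9 genes described. MMP13 and MMP14 lie between 49.3 and 79.1 FPKM in all libraries, and MMP9 reaches at most 0.565 FPKM.

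The collagenases come first among the secreted enzymes. Differences between groups were read from CPM, counts scaled to a common library total with factors from the trimmed mean of M-values (TMM), which compares 1 gene across libraries. MMP13, a collagenase of broad substrate range, had 195, 221 and 211 CPM in palmatine cells, against 165, 179.7 and 169.6 CPM in control cells. Every palmatine library lay above every control library. The log2 fold change was 0.29 ± 0.0716 (SE), a ratio of 1.221 with a 95% interval of 1.09 to 1.36 (unadjusted p = 0.00277, adjusted p = 0.455, edgeR quasi-likelihood test). Among the 9 genes MMP13 had the smallest p, and 6.68% of all tested genes likewise had palmatine values all above the control values.

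MMP1, the interstitial collagenase that keratinocytes make when they meet dermal collagen, had 40.6, 53.4 and 48.2 CPM in palmatine cells, against 40.2, 43.6 and 40.5 CPM in control cells. The lowest palmatine library lay among the control libraries, so the groups overlapped. The log2 fold change was 0.19 ± 0.104 (SE), with a 95% interval of -0.04 to 0.43 (adjusted p = 0.459 in edgeR). Without palmatine replicate 2 it was 0.10. Of the 50-base words of its longest coding transcript, 2.92% also occur in WTAPP1.

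MMP10, a stromelysin that cuts many matrix proteins and can activate collagenases, had 26.4, 31.8 and 27.0 CPM in palmatine cells, against 22.9, 25.8 and 23.0 CPM in control cells. The groups did not overlap, although the lowest palmatine and highest control libraries were close. The log2 fold change was 0.24 ± 0.0995 (SE), a ratio of 1.18 with a 95% interval of 1.01 to 1.38 (unadjusted p = 0.0357, adjusted p = 0.455 in edgeR). Without palmatine replicate 2 it was 0.16 (unadjusted p = 0.120 in edgeR), and the unadjusted p was also above 0.05 without control replicate 1, without control replicate 3 and with DESeq2, at 0.0946, 0.0927 and 0.0504. Of the 50-base words of its longest coding transcript, 3.45% also occur in the neighbouring gene MMP3, a related stromelysin at 0.651 to 0.940 FPKM.

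These 3 neighbouring genes varied together from library to library. In each group, replicate 2 had the highest level of MMP1, MMP10 and MMP13. Over the 6 libraries, the Pearson correlation of log2 CPM was 0.93 between MMP10 and MMP13, 0.89 between MMP1 and MMP10 and 0.86 between MMP1 and MMP13. Members on different chromosomes also correlated, MMP28 with TIMP1 at 0.89 and MMP14 with TIMP2 at 0.81. Of all tested genes, 3.18% followed MMP28 at least as closely as TIMP1 did. For MMP14 and TIMP2 that share was 17.7%, counted as genes following MMP14. A part of the shared locus in this was not tested. The points share the group difference and each library's composition. Of all tested genes, 0.267% followed MMP13 at least as closely as MMP10 did, and 0.267% followed MMP1 at least as closely as MMP10 did. MMP12, which lies between MMP1 and MMP13, differed by -0.04 on the log2 scale (adjusted p = 0.882 in edgeR). Its interval of -0.29 to 0.21 held values of both signs and the estimate for MMP1, 0.19. That interval lay below the estimates for MMP10 (0.24) and MMP13 (0.29) but overlapped their intervals. Whether MMP12 leaned differently from these genes is therefore not settled. These values keep the trend with gene length described below. The genes outside the 9 whose levels were most like those of MMP13 were PLPP3, TBCE and CLK2, with correlations of 0.99, 0.99 and 0.98 over the 6 libraries. They were picked as the highest among the tested genes, so high values come with the selection.

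MMP9, the gelatinase best known from neutrophils and from inflamed epithelium, was scarce. It had 14, 20 and 11 counts in palmatine libraries, against 12, 15 and 7 counts in control libraries, out of 12908646 to 17218171 counts per library. In CPM these were 0.784, 1.30 and 0.687 in palmatine cells, against 0.924, 0.976 and 0.559 in control cells. The groups overlapped widely, and 20 counts alone carry an exact 95% Poisson interval of 12.2 to 30.9, which covers counting error only. The log2 fold change of 0.14 ± 0.358 (SE) had a 95% interval of -0.66 to 0.95 (adjusted p = 0.871 in edgeR), and it was negative without palmatine replicate 2 (-0.17) or without control replicate 3 (-0.06). As a ratio that interval was 0.631 to 1.93, so these counts do not tell apart ratios within those bounds for MMP9. In addition, 11.2% of the 50-base words of its transcript also occur in an antisense RNA, SLC12A5-AS1.

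MMP14, a membrane-anchored collagenase that activates other metalloproteinases, had 273, 261 and 270.4 CPM in palmatine cells, against 271, 254 and 235 CPM in control cells. The groups overlapped, with control replicate 3 the lowest of all. On the log2 scale the difference was 0.08 ± 0.0708 (SE), a ratio of 1.06 with a 95% interval of 0.947 to 1.18 (adjusted p = 0.590 in edgeR). It was 0.03 without control replicate 3, 0.13 without control replicate 1 and 0.14 with library size alone. The genes most like MMP14 over the 6 libraries were TMEM127, DNHD1 and KCNK12, with Pearson correlations of 0.999, 0.998 and 0.997. They were picked as the highest among the tested genes over only 6 libraries, so high values come with the selection. Many genes followed MMP14, and 17.7% of all tested genes did so at least as closely as TIMP2, at 0.81.

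MMP28, also called epilysin, is a secreted enzyme that keratinocytes express at rest and after injury. It had 94.7, 104 and 95.5 CPM in palmatine cells, against 102, 103 and 99.9 CPM in control cells. Palmatine replicate 2 was the highest of all and the other palmatine libraries the lowest. Its log2 fold change was -0.05 ± 0.0674 (SE), with a 95% interval of -0.20 to 0.10 (adjusted p = 0.740 in edgeR). Its sign was positive under 6 of 17 alternative settings, library size alone and removal of a gene-length trend among them. None of the 50-base words of its longest coding transcript occurs in a transcript of TAF15 or of any other gene in GENCODE. That transcript has 2033 bases, against a deposited gene length of 3190, so part of the counted sequence was not searched.

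**Figure D2:**
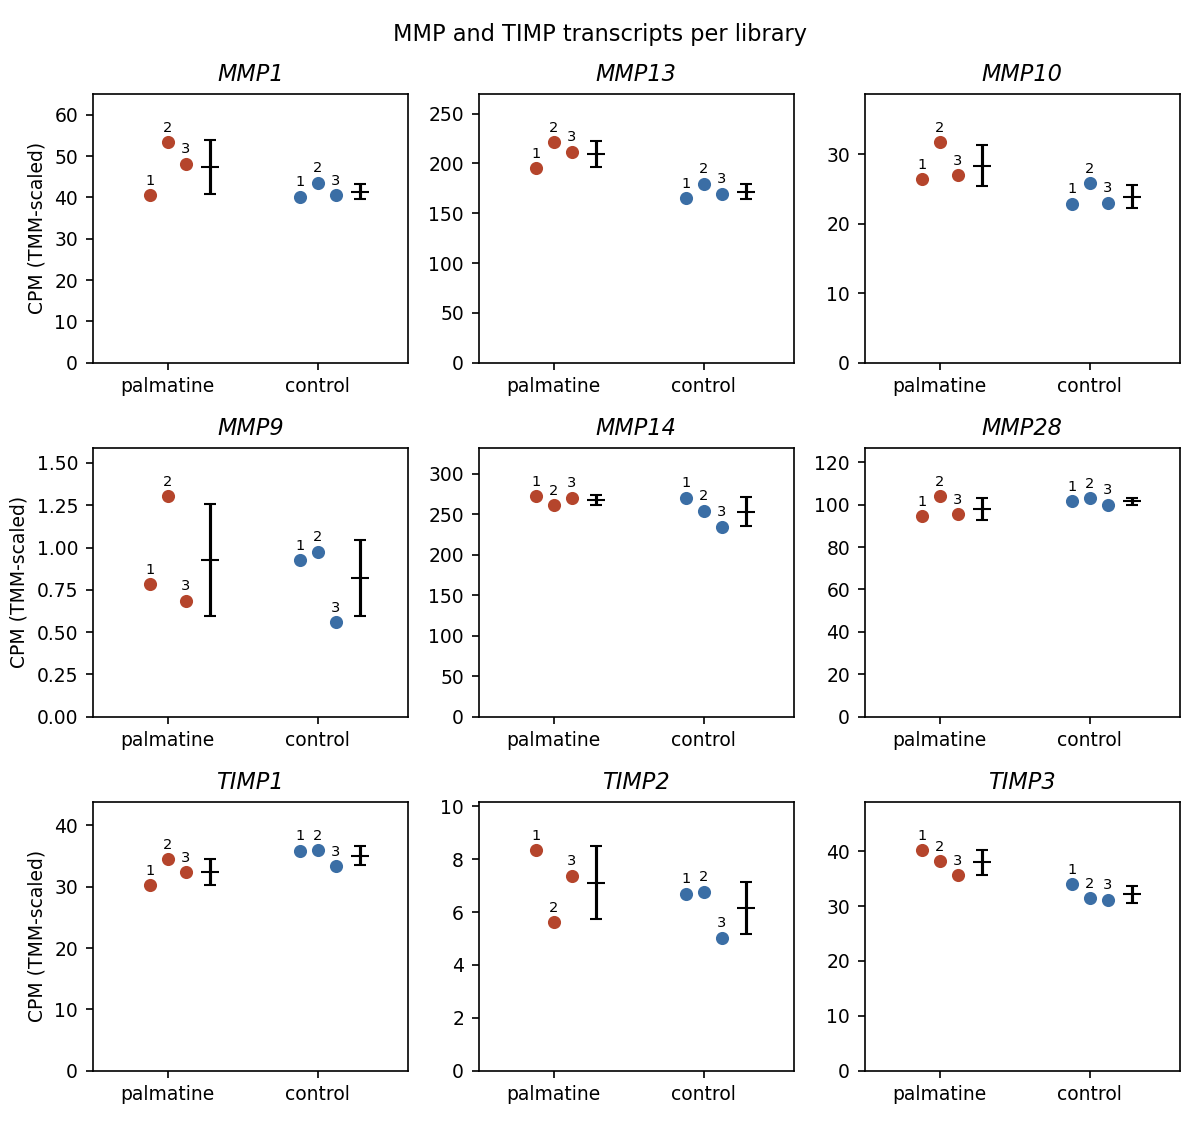
TMM-scaled CPM of each of the 9 genes, 1 point per library with its replicate number, palmatine left and control right, with mean and SD in black (n = 3 each); axes start at 0 and differ between panels. The groups do not overlap for MMP13, MMP10 and TIMP3, and they overlap for the other 6 genes.

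Among the inhibitors, TIMP3 binds to the extracellular matrix and also inhibits ADAM17, the sheddase of tumour necrosis factor. TIMP3 had 40.2, 38.2 and 35.6 CPM in palmatine cells, against 33.9, 31.4 and 31.2 CPM in control cells. Every palmatine library lay above every control library. For TIMP3 the log2 fold change was 0.24 ± 0.0813 (SE), a ratio of 1.18 with a 95% interval of 1.04 to 1.34 (unadjusted p = 0.0153, adjusted p = 0.455 in edgeR). The unadjusted p was 0.0689 without palmatine replicate 1 and 0.0583 without control replicate 2.

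TIMP1, a soluble inhibitor of most secreted metalloproteinases and the most abundant TIMP here, had 30.2, 34.5 and 32.3 CPM in palmatine cells, against 35.9, 36.0 and 33.3 CPM in control cells. The lowest values were those of palmatine replicates 1 and 3, while palmatine replicate 2 lay within the control range. For TIMP1 the log2 fold change was -0.12 ± 0.0818 (SE), with a 95% interval of -0.30 to 0.07 (adjusted p = 0.517 in edgeR). With a gene-length trend removed, its value was 0.07.

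TIMP2, which both inhibits MMP2 and helps MMP14 to activate it, had 8.35, 5.61 and 7.37 CPM in palmatine cells, against 6.70, 6.77 and 5.03 CPM in control cells. The groups overlapped, and the log2 fold change of 0.21 ± 0.177 (SE) had a 95% interval of -0.19 to 0.60 (adjusted p = 0.587 in edgeR). It ranged from 0.07 without palmatine replicate 1 to 0.35 without palmatine replicate 2. Of the 50-base words of its longest coding transcript, 13.0% also occur in AC022966.1 or CEP295NL. TIMP4, the remaining member of the inhibitor family, had 7, 9 and 11 counts in palmatine libraries, against 16, 13 and 15 counts in control libraries. Its log2 fold change was -0.96 ± 0.333 (SE, unadjusted p = 0.0170, adjusted p = 0.455 in edgeR).

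Over the 9 members, 7 log2 fold changes were positive and 2 negative, with a median of 0.19, while 49.6% of all tested genes had a positive value and the median of all was -0.00178. The median of the members was 0.10 without palmatine replicate 2 and 0.08 without control replicate 3. Palmatine values lay entirely above control values for 3 of the 9, and entirely below for 0, where 6.68% of all tested genes lay above and 5.71% below. The 95% interval excluded a 2-fold change for all 9 members in this fit, and a 1.5-fold change for 7 of them, all but MMP9 and TIMP2. With a gene-length trend removed, the MMP9 interval was -0.52 to 1.04 on the log2 scale, which includes a 2-fold change. The count of 3 members with an unadjusted p under 0.05 ranged from 2 to 4 over the alternatives, 2 being reached without palmatine replicate 2 or without any 1 of control replicates 1, 2 and 3, as well as with DESeq2. The share of all tested genes higher at that threshold moved over the same settings too, between 1.38% without palmatine replicate 1 and 12.5% without palmatine replicate 2 or with library size alone. Where 4 members were counted, that share was 5.4% to 12.5%. MMP13 was among them in every setting run, with an unadjusted p of at most 0.0142.

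Fold changes in these libraries followed gene length, with a Spearman correlation of 0.443 across tested genes, which are not independent replicates. The members differ in length, from 1446 bases for TIMP1 and 1759 for MMP10 to 5633 for TIMP2. With a smooth trend on gene length removed from each library, all 9 log2 fold changes were positive. MMP10 then stood at 0.41, which is 1.66 times its value without this step, MMP13 at 0.38 and MMP1 at 0.28. Their adjusted p in edgeR were 0.366, 0.0703 and 0.469, with intervals of 0.23 to 0.58, 0.25 to 0.51 and 0.11 to 0.46. TIMP1 changed sign to 0.07 and MMP28 to 0.02, MMP9 stood at 0.26, and TIMP3, one of the longer genes, hardly moved at 0.26. In that fit 4 of the 9 members had an unadjusted p under 0.05 as higher, against 5.4% of all tested genes, and 0 passed after adjustment over all genes, where 0.0567% did.

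**Figure D3:**
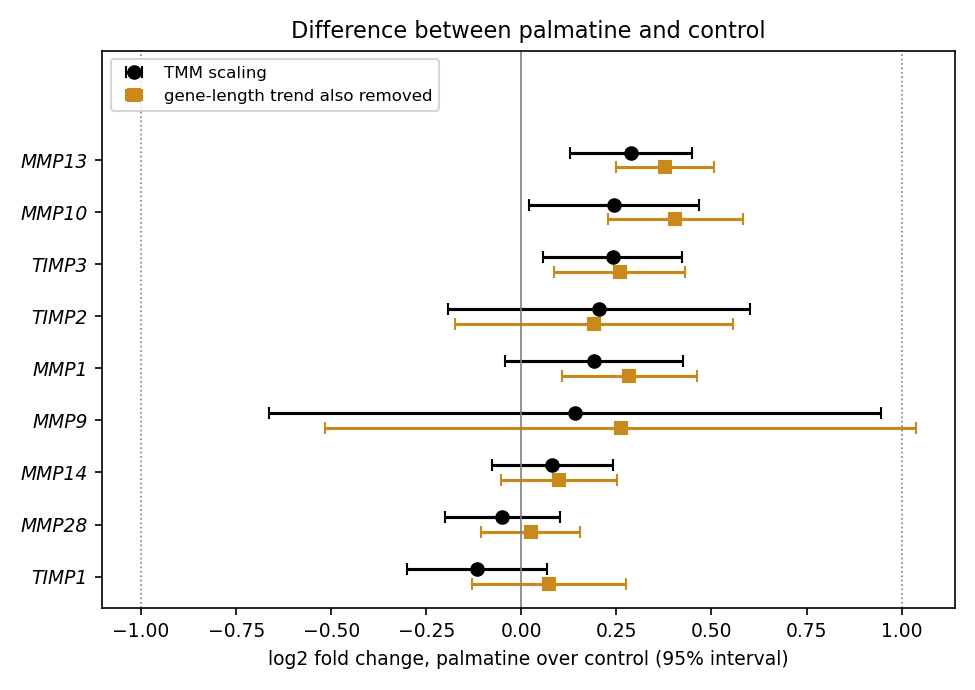
Log2 fold change of palmatine over control for each gene with its 95% interval from edgeR, with TMM scaling (circles) and with a gene-length trend also removed (squares); dotted lines mark a 2-fold change. The intervals of MMP13, MMP10 and TIMP3 lie above 0 in both fits, that of MMP1 only with the trend removed, and the squares of TIMP1 and MMP28 lie on the other side of 0 from their circles.

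The balance of proteases and inhibitors was described by ratios within each library. These need no scaling between libraries, but they keep any trend with gene length. The summed FPKM of the 6 MMP members was 6.03, 6.19 and 6.25 times that of the 3 TIMP members in palmatine libraries, against 5.29, 5.52 and 5.54 times in control libraries. The palmatine libraries lay above the control libraries, but the difference of 0.18 on the log2 scale was 0.06 when CPM replaced FPKM. MMP1 stood at 0.708, 0.818 and 0.787 times TIMP1 in palmatine libraries, against 0.592, 0.640 and 0.642 times in control libraries. MMP13 stood at 3.29, 3.28 and 3.34 times TIMP1 in palmatine libraries, against 2.35, 2.55 and 2.60 times in control libraries; this pair was chosen after its values were seen. In both pairs the groups did not overlap, and both set a longer gene against the shortest of the 9. How often other gene pairs separate in this way was not computed. MMP13 and TIMP1 also had the highest and lowest log2 fold changes of the 9, so these ratios partly restate those values. With the length trend removed, the log2 fold changes in edgeR were 0.38 for MMP13, 0.28 for MMP1 and 0.07 for TIMP1. Without this step they were 0.29, 0.19 and -0.12, so TIMP1 then stood further from both. MMP14 relative to TIMP2 overlapped between groups, at 39.8 to 56.7 in palmatine and 45.8 to 56.9 in control libraries. MMP9 transcripts were at 0.0131 to 0.0234 times TIMP1 in palmatine and 0.0104 to 0.0168 times in control libraries, which also overlapped. No p is given for these ratios.

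**Figure D4:**
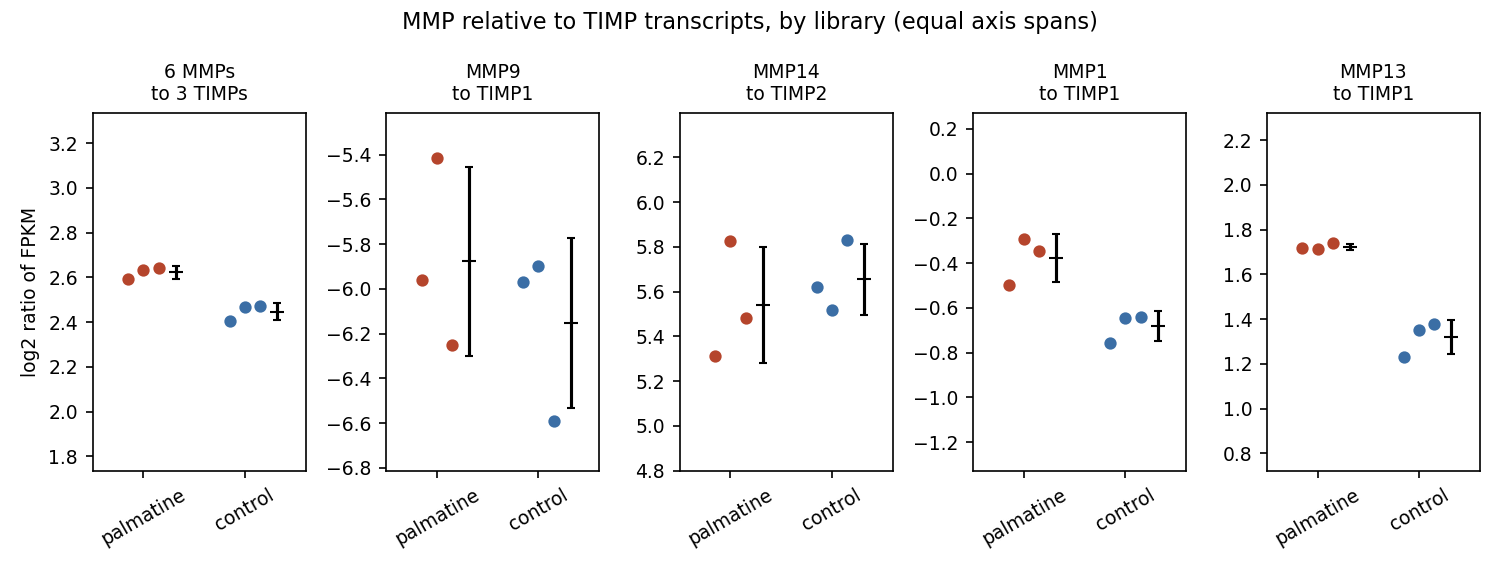
Log2 ratio of FPKM of MMP to TIMP transcripts in each library, palmatine left and control right, with mean and SD in black (n = 3 each); the axes span the same range around different centres. Palmatine libraries lie above control libraries for the summed members, MMP1 to TIMP1 and MMP13 to TIMP1, and overlap with them for MMP9 to TIMP1 and MMP14 to TIMP2. How often other gene pairs separate was not computed.

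Genes that act with these enzymes were read from lists chosen with earlier results of these data known. None of the listed genes passed the adjusted threshold in edgeR. Of the other MMPs and TIMP4, 11 of 18 were tested, with 6 positive and 5 negative values and a median log2 fold change of 0.05. At an unadjusted p below 0.05, only TIMP4 differed, as lower. Over all tested genes, 5.13% were higher and 4.69% lower by that threshold. MMP2 itself had a value of 0.08 (adjusted p = 0.535). Among 16 tested ADAM and ADAMTS proteases the median was 0.04, and only ADAM28 had an unadjusted p below 0.05, with a value of 0.41. Among 17 tested partners, receptors and inhibitors the median was -0.03, with 1 higher and 1 lower; CD63, a tetraspanin that binds TIMP1, had a value of -0.29 and the integrin subunit ITGAV one of 0.20. ADAM28, CD63 and ITGAV each stood at 0.455 after adjustment over all genes.

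Plasmin can activate several of these proteases, and the plasminogen activator system held the smallest p of all lists. Of 19 tested genes of plasminogen activation and proprotein convertases, 1 was higher and 1 lower by the unadjusted threshold, with a median log2 fold change of 0.00236. The shares of all tested genes were 5.13% higher and 4.69% lower. SERPINB2, an inhibitor of plasminogen activators, was at 25.2 ± 2.21 CPM in palmatine and 36.3 ± 2.84 CPM in control cells (SD, n = 3 each), or -0.53 on the log2 scale (adjusted p = 0.323 in edgeR). FURIN, the convertase that cleaves the precursors of MMP14 and MMP28, had a value of 0.16 (adjusted p = 0.455 in edgeR).

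Substrates of the proteases in the epidermal matrix had mostly positive values, and the number past the unadjusted threshold changed with single libraries. Of 20 tested matrix and adhesion genes, 18 had positive log2 fold changes, against 49.6% of all tested genes, with a median of 0.20. By the unadjusted threshold 8 were higher, against 5.13% of all tested genes, and 0 were lower, against 4.69%. Palmatine values lay all above the control values for 3 of the 20, against 6.68% of all tested genes. This list, like the others, was chosen with earlier results of these data known. Control replicate 3 had the lowest CPM of the 6 libraries for 17 of the 20 genes, and for 29.1% of all tested genes. Without it the median was 0.11 and 2 of the 20 were higher by that threshold, against 1.59% of all tested genes. The count was 1 without palmatine replicate 1, 2 without palmatine replicate 3, 3 without control replicate 2, 11 without palmatine replicate 2 and 13 without control replicate 1, with shares of all tested genes of 1.38%, 1.56%, 2.29%, 12.5% and 11.7% in that order. With the length trend removed, 20 were positive, the median was 0.15 and 7 were higher, against 5.4% of all tested genes. TNC, the matrix protein tenascin-C, had a value of 0.56, COL7A1, the collagen of anchoring fibrils, one of 0.30 and COL4A5, a basement membrane collagen, one of 0.20, all at 0.455 after adjustment in edgeR.

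Transcription factors that act on metalloproteinase promoters had values of both signs. Of 18 tested genes, SP1 and factors of the AP-1, ETS and RUNX families, 10 had positive and 8 negative values. The median was 0.02, and by the unadjusted threshold 2 were higher and 1 lower, against 5.13% and 4.69% of all tested genes. Palmatine values lay all above the control values for 1 factor and all below for 4, against 6.68% and 5.71% of all tested genes. The AP-1 subunits FOSL2 and FOSL1 had values of 0.22 and -0.19, and RUNX1 and RUNX2, a known activator of MMP13 in bone, had values of 0.25 and 0.27; after adjustment all 4 stood at 0.455 in edgeR.

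Markers of other cells that make these proteases were low beside those of keratinocytes. All 10 keratinocyte markers had a mean of at least 1 FPKM, and their summed FPKM ran from 3099.9 to 3566 in palmatine and from 3204 to 3341 in control libraries. None of the 10 fibroblast markers reached 1 FPKM, with sums of 0.561 to 0.894 FPKM in palmatine and 0.429 to 0.697 FPKM in control libraries, and COL1A2 and THY1 had 0 counts. Of 8 macrophage and leukocyte markers only CD14 reached 1 FPKM, with sums of 2.12 to 2.16 FPKM in palmatine and 2.05 to 2.47 FPKM in control libraries, and AIF1 and MRC1 had 0 counts. T cell, melanocyte and endothelial lists summed to at most 1.34 FPKM in any library, and of these only the endothelial marker CDH5 reached a mean of 1 FPKM. The scarce members MMP9 (0.232 to 0.565 FPKM) and TIMP2 (0.866 to 1.54 FPKM) lay below the leukocyte sums, while TIMP2 lay above the fibroblast sums within each group. This sets 1 gene against a sum of markers, and the cells of origin were not tested. The reference genes ACTB and GAPDH had log2 fold changes of -0.02 and -0.18 (adjusted p = 0.938 and 0.477 in edgeR).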

How the data were processed

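TRIzol extraction, poly(A) selection and random priming are described in the labels' protocols, with dUTP in the second strand for strand-specific libraries. The submitters' processing notes list HISAT2 2.1.0 and HTSeq 0.9.1; build, annotation, strand setting and treatment of multi-mapping reads: not given in the sources used here. Per the file headers, the authors deposited raw read counts and FPKM per gene. The deposited FPKM equalled the count scaled to the length column and the library total in 100% of nonzero values (relative tolerance 1e-05). Library totals ran from 12908646 to 17218171 counts, and replicates differed by more than sampling noise (chi-square per degree of freedom at least 3.135).

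Genes were filtered with filterByExpr (minimum count 10), which left 12356, all 9 members among them. The groups were compared with the quasi-likelihood test of edgeR 4.0.16 in R 4.3.3, with TMM factors of 0.970 to 1.04 and Benjamini-Hochberg adjustment over all tested genes, two-sided. FPKM values carry no TMM factor, so differences were read from CPM. Standard errors came from the F statistic. Alternatives were library size alone, DESeq2 1.42.0, limma 3.58.1 (voom, or log2 FPKM with pseudocounts 1 and 0.1), other count filters, a per-library loess trend on gene length (span 0.3) removed as an offset, a replicate block and each library left out. Repeating the substrate list's counts in these settings was chosen after seeing the data. Correlations used log2 CPM (prior count 2). Sharing was searched as 50-base words of each longest coding transcript in all GENCODE 29 transcripts. The fits were tested on simulated data. Members and lists were chosen with earlier results of these data known. Named list genes were taken from the up to 4 per list with the smallest p, 1 of which is not reported here, and those most like a member were taken for the 2 members of highest FPKM and the member of smallest p. PLPP3 and the other genes named for likeness follow that rule, while MMP12, MMP3, MMP26, MMP27 and MMP23B were named after their values were seen. A further table line, emptied in the copy at hand, was not analysed here.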

Additional observations from a re-analysis of the deposited data

How the results depend on the processing

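The count of genes called over the whole table was 5 (0 higher in palmatine), and it was 14 with DESeq2, 8 with no count filter, 3 with unfiltered log2 FPKM, 9 with the replicate block and 11 with the block and the length trend removed; leaving out single libraries gave 5 to 6. No member was called except MMP13 under the replicate block with the length trend removed, which gave 1 (log2 fold change 0.38, adjusted p = 0.0169), and leaving out single libraries gave 0 to 0 members; at an unadjusted p under 0.05 there were 3. Deviations of same-numbered libraries correlated at 0.399, 0.178 and -0.0963, which does not settle whether the numbers pair cultures. The labels do not say that they do, so the block was used only as an alternative. The replicate block alone called 0 members, with MMP13, MMP10, MMP1 and TIMP3 higher at an unadjusted p under 0.05, as were 10.3% of all tested genes. The members' median log2 fold change was 0.0846 to 0.230 with single libraries left out. The ratio of summed MMP to TIMP transcripts moved to 0.0601 with CPM. The directions of MMP13, MMP10, MMP1, MMP14, TIMP2 and TIMP3 were kept under all 17 alternatives. Reversed were MMP28, at 0.0133 with library size alone, 0.0124, 0.0128 and 0.0124 with log2 FPKM (pseudocount 1, 0.1, and 1 unfiltered), 0.0241 with the length trend removed and 0.0246 with the block as well; TIMP1, at 0.0719 and 0.0728 in those length fits; and MMP9, at -0.168 without palmatine replicate 2 and -0.0552 without control replicate 3 (-0.168 to 0.3075 with single libraries left out). The cause of these reversals was not tested. MMP9 was not tested at a minimum count of 50. Of the 9 members MMP9 had the fewest counts, 7 to 20 per library.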
